A study of Arabidopsis thaliana with 6 samples.

Results

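TIR-NBS genes encode intracellular immune receptors of plants, and their transcripts were examined in the siliques (fruits with their young seeds) of Arabidopsis thaliana. Every row of the deposited table whose description contains "TIR-NBS" in any case was taken. This gave 84 of 27779 rows, of which 74 are described as TIR-NBS-LRR and 10 as TIR-NBS without the LRR. RNA-seq was made from siliques taken 3 days after pollination, with 3 libraries of the agc1-4 mutant and 3 of WT. The WT columns are headed Col and the mutant columns sr, and the sources used here do not give the kind of agc1-4 mutation or the background in which it stands. If that background is not Col, effects of the mutation and of the background on these receptor genes, mapping of their reads included, cannot be told apart. Whether each library had its own plants is not stated either, and the spread behind the p-values may therefore be technical. The comparison asks which transcripts differ between agc1-4 and WT siliques.

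As background, the name lists the parts of the protein. A TIR domain (the Toll/interleukin receptor type) stands at the start, a nucleotide-binding site follows, and leucine-rich repeats, where present, take part in recognising molecules that a pathogen brings into the cell. On activation the TIR domain cleaves NAD+, and the small molecules made from it bind EDS1 together with PAD4 or SAG101, which then engage helper receptors of the ADR1 and NRG1 families. Calcium influx, salicylic acid synthesis and often local cell death follow. Many of these receptor genes stand in tandem clusters, and plants with too much of some of them, such as SNC1, are stunted and defend themselves without a pathogen.

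Total counts were 11812934, 9588011 and 7973366 in the agc1-4 libraries, and 8460230, 11663034 and 8429300 in the WT libraries. The mutated kinase gene, taken from background knowledge to be AT5G40030, had 0.09, 0.39 and 0.07 FPKM in agc1-4 and 0.63, 1.78 and 1.01 FPKM in WT. FPKM is a level per transcript length and library size. Its transcript was thus low in every agc1-4 library, with a log2 fold change of -2.66 ± 0.54 (SE) and 0.000983 as adjusted p in edgeR. It passed the filter on low counts through WT alone, since 3 WT libraries and 0 agc1-4 libraries reached the cutoff, so this fold and p are given as a description. On FPKM the exact permutation p (two-sided) was 0.1, the smallest that 3 libraries against 3 allow. All 6 markers of the valve, valve margin and replum of the fruit were measured above 0 in every library.

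In agc1-4 siliques, 20 TIR-NBS genes had lower transcript levels than in WT and 0 had higher levels. The tested genes numbered 53, and 37.7% of them were called lower, where 7.07% of all 18828 genes tested were called lower and 6.55% higher. A gene was called at a Benjamini-Hochberg adjusted p under 0.05 over all tested genes in the edgeR quasi-likelihood test. In either direction 13.6% of all genes were called. The changes were small: among the 20 called genes the median fold was 1.35, and only AT5G41750 passed a fold of 2. The count was 11 of 52 fitted without agc1-4 replicate 1 and 12 of 53 without agc1-4 replicate 3, where 4.57% and 4.55% of all genes were lower. It was 12 with DESeq2, which called 3.72% of all genes lower. With limma on log2(FPKM + 1) it was 8 of 44 fitted, where 4.71% of all genes were lower. Without a filter on low counts it was 21 of 73 fitted (28.8%), against 6.16% of all genes. With a filter on mean CPM it was 20 of 61 fitted (32.8%), against 6.78%. In bulk tissue, fewer cells of a type and less RNA per cell cannot be told apart.

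Tested members that were not called mostly had negative fold changes too. The log2 fold change, agc1-4 over WT, was negative for 47 of the 53 tested members, against 9360 of all 18828 genes. Its median was -0.32 among the members, with quartiles of -0.45 and -0.12, against 0.00 over all genes, with quartiles of -0.13 and 0.14. FPKM in every agc1-4 library lay below every WT library for 31 of the 53 members, or 58.5%, where 15.0% of all tested genes showed this. The opposite order was found for 0 members, where 14.5% of all tested genes showed it. At an unadjusted p under 0.05 in edgeR the members numbered 29 of 53. The share of all genes at that threshold is not given here, so nothing is read from this count. Among the 33 tested members that were not called, 27 had a negative and 6 a positive fold change. Of the 53, 4 reached the cutoff for low counts in all WT libraries but not in all agc1-4 libraries. This favours a negative value in the counts above. Of the 47 members over the cutoff in all 6 libraries, 42 had a negative value, against 8884 of 17812 genes.

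**Figure D1:**
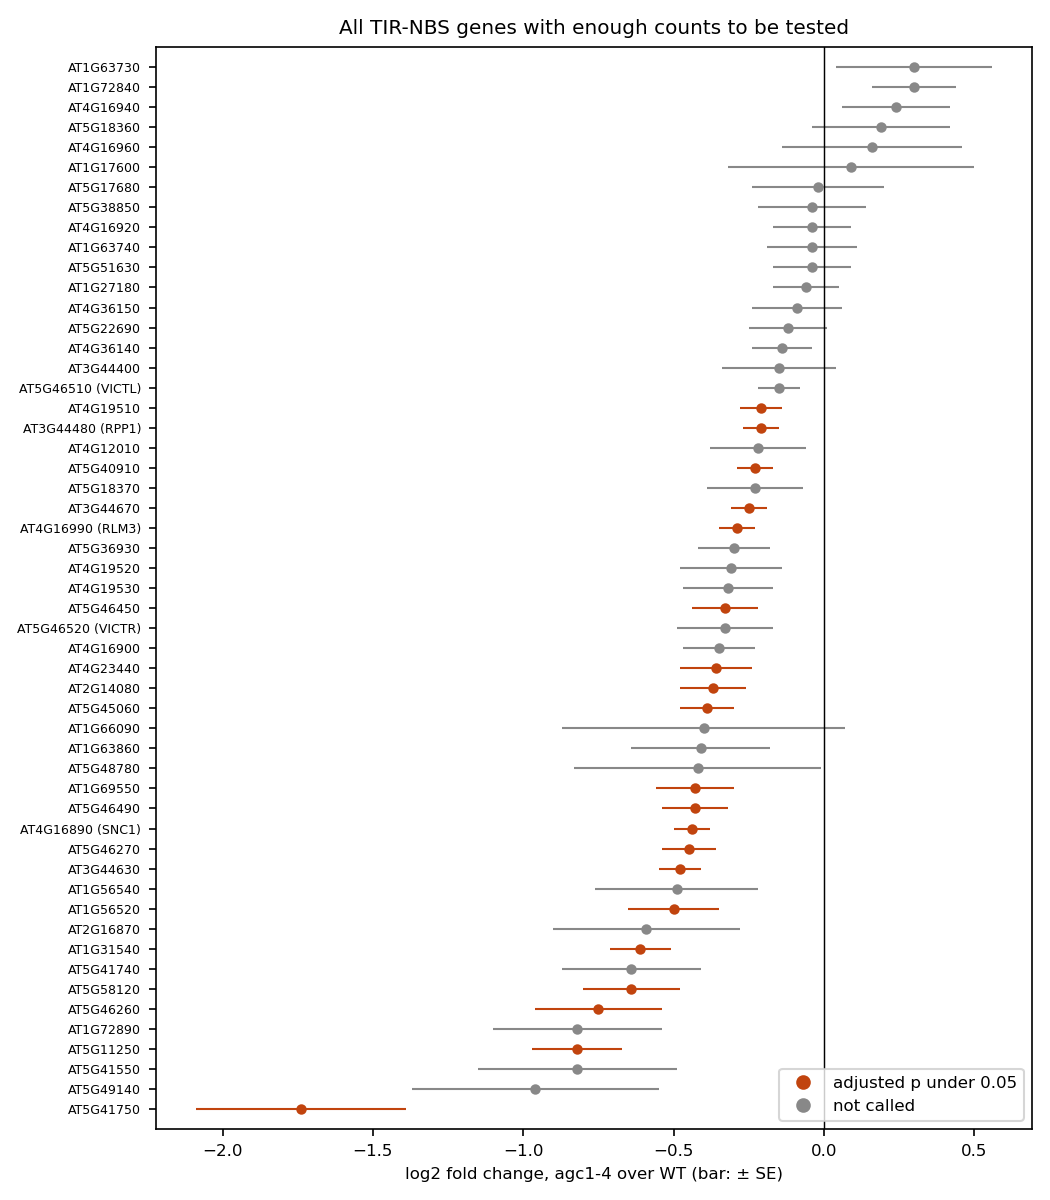
Log2 fold change, agc1-4 over WT, of the 53 tested TIR-NBS genes, each as a point with its SE as a bar, ordered by value. Called genes (orange, adjusted p under 0.05) all stand left of 0, between -1.74 and -0.21, and 6 genes that were not called (grey) stand right of 0.

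Added over all 84 members, FPKM came to 279, 276 and 272 in the agc1-4 libraries and 330, 351 and 340 in the WT libraries. The sums do not overlap, and the agc1-4 mean of 276 ± 3.51 was 81.0% of the WT mean of 340 ± 10.4 (SD, n = 3 each). Per library, the median difference of the tested members from the WT mean was -0.26, -0.24 and -0.27 on the log2 scale in agc1-4, and -0.03, -0.01 and 0.02 in WT. The 3 agc1-4 libraries gave similar values. The 8 most abundant members held 58.9% of the summed FPKM over all libraries.

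Most members were weakly expressed in siliques. Of the 84, 8 averaged at least 10 FPKM over the 6 libraries, 36 lay between 1 and 10, and 40 lay under 1. The share called lower was larger among the more abundant members. It was 7 of 8 members (87.5%) at 10 FPKM and above, where 8.59% of all tested genes of that level were called lower. Between 1 and 10 FPKM it was 12 of 36 (33.3%), against 4.78% of all genes. Both shares were smaller when single agc1-4 libraries were left out, and each such fit also holds fewer samples. At 10 FPKM and above 3 of 8 (37.5%) were lower without agc1-4 replicate 1, against 5.65% of all genes of that level, and likewise 3 of 8 with the trends described below on GC content and length removed, against 9.21%. Limma called 4 of 8 on log2(FPKM + 1), against 5.87% of all genes of that level, and 4 of 8 on log2(FPKM + 0.1), against 5.74%. Between 1 and 10 FPKM 7, 7 and 6 of 36 were lower without agc1-4 replicate 1, 2 and 3, against 2.91%, 2.76% and 2.89% of all genes. It was 6 of 36 with DESeq2, against 2.0%, and 4 of 36 with limma on log2(FPKM + 1), against 2.95%. Under 1 FPKM 9 members were tested and 1 was lower, or 11.1%, against 5.0% of all genes. That gene, AT5G41750, and 3 more of the 9 passed the filter on low counts through their WT libraries, so nothing is read from this range. The median log2 fold change was -0.24 at 10 FPKM and above and -0.32 between 1 and 10 FPKM. Summed FPKM of these 3 groups stood at 81.6%, 80.5% and 74.9% of WT.

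**Figure D2:**
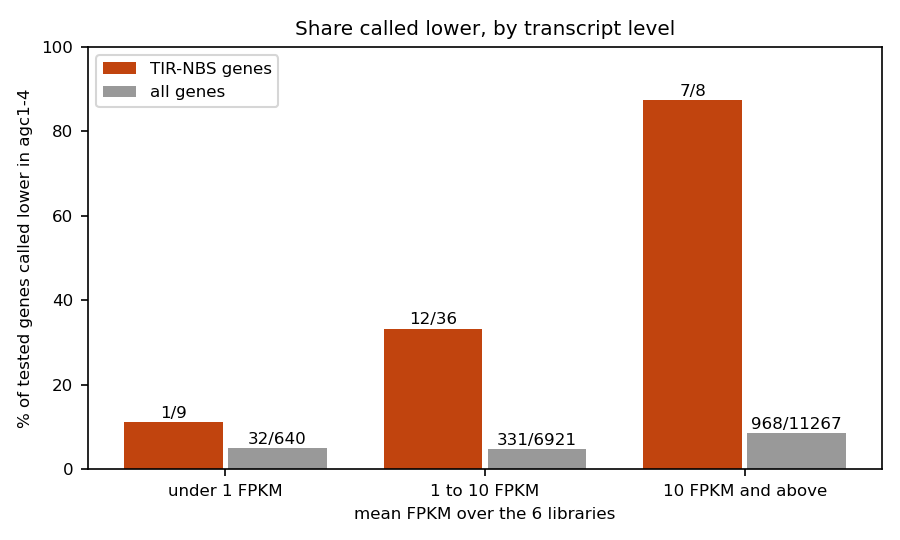
Percent of tested genes called lower in agc1-4 (vertical axis) in 3 ranges of mean FPKM, for TIR-NBS genes (orange) and all genes (grey), with the counts above the bars. The TIR-NBS share is 87.5% at 10 FPKM and above (37.5% without agc1-4 replicate 1) and 33.3% between 1 and 10 FPKM (16.7% without agc1-4 replicate 3), and under 1 FPKM it rests on a single called gene of 9 tested.

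RLM3 (AT4G16990), named for resistance to the blackleg fungus Leptosphaeria maculans and described as TIR-NBS without the LRR, was the most abundant member. It had 30.52, 33.70 and 32.20 FPKM in agc1-4 and 38.61, 41.09 and 37.48 FPKM in WT, with no overlap. Its log2 fold change was -0.29 ± 0.06 (adjusted p = 0.00218). SNC1 (AT4G16890), a receptor of salicylic acid dependent defence, had 23.18, 20.87 and 21.60 FPKM in agc1-4 and 29.45, 30.88 and 29.02 FPKM in WT. This was 1.36-fold lower (log2 fold change -0.44 ± 0.06), and its adjusted p of 7.26e-06 was the lowest of the members. AT3G44630 came next by adjusted p, with 14.73, 13.87 and 14.98 FPKM in agc1-4 against 18.72, 22.38 and 19.61 FPKM in WT, a log2 fold change of -0.48 ± 0.07.

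RPP1 (AT3G44480), which confers resistance to downy mildew, differed less. It had 21.05, 21.55 and 20.35 FPKM in agc1-4 and 23.75, 23.71 and 25.34 FPKM in WT, a log2 fold change of -0.21 ± 0.06 (adjusted p = 0.0238). AT3G44670 had 25.88, 26.82 and 26.21 FPKM in agc1-4 and 29.72, 34.29 and 29.58 FPKM in WT (-0.25 ± 0.06, adjusted p = 0.0063). In both, every agc1-4 library lay below every WT library. AT5G40910 had 22.09, 22.48 and 22.61 FPKM in agc1-4, against 25.85, 28.14 and 26.72 FPKM in WT, and its log2 fold change was -0.23 ± 0.06 (adjusted p = 0.00902). AT4G19510 had 15.58, 14.48 and 14.78 FPKM in agc1-4, against 16.55, 17.19 and 18.39 FPKM in WT (-0.21 ± 0.07, adjusted p = 0.041). These 4 calls depended on the data used. Without agc1-4 replicate 1 none of the 4 was called, with adjusted p of 0.0862, 0.0529, 0.0687 and 0.0682 in the order given. Their log2 fold changes in that fit, which holds fewer samples, were -0.21, -0.23, -0.22 and -0.24. RPP1 and AT4G19510 also lost their calls without agc1-4 replicate 2 (0.067 and 0.187), without agc1-4 replicate 3 (0.115 and 0.126) and without WT replicate 3 (0.0821 and 0.125), and AT4G19510 without WT replicate 1 (0.054).

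The eighth of the abundant members, VICTL (AT5G46510), was the only one of the 8 not called. It had 9.40, 9.97 and 9.98 FPKM in agc1-4 and 10.20, 11.68 and 10.51 FPKM in WT, a log2 fold change of -0.15 ± 0.07 (adjusted p = 0.215). The libraries of the 2 genotypes did not overlap here either.

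**Figure D3:**
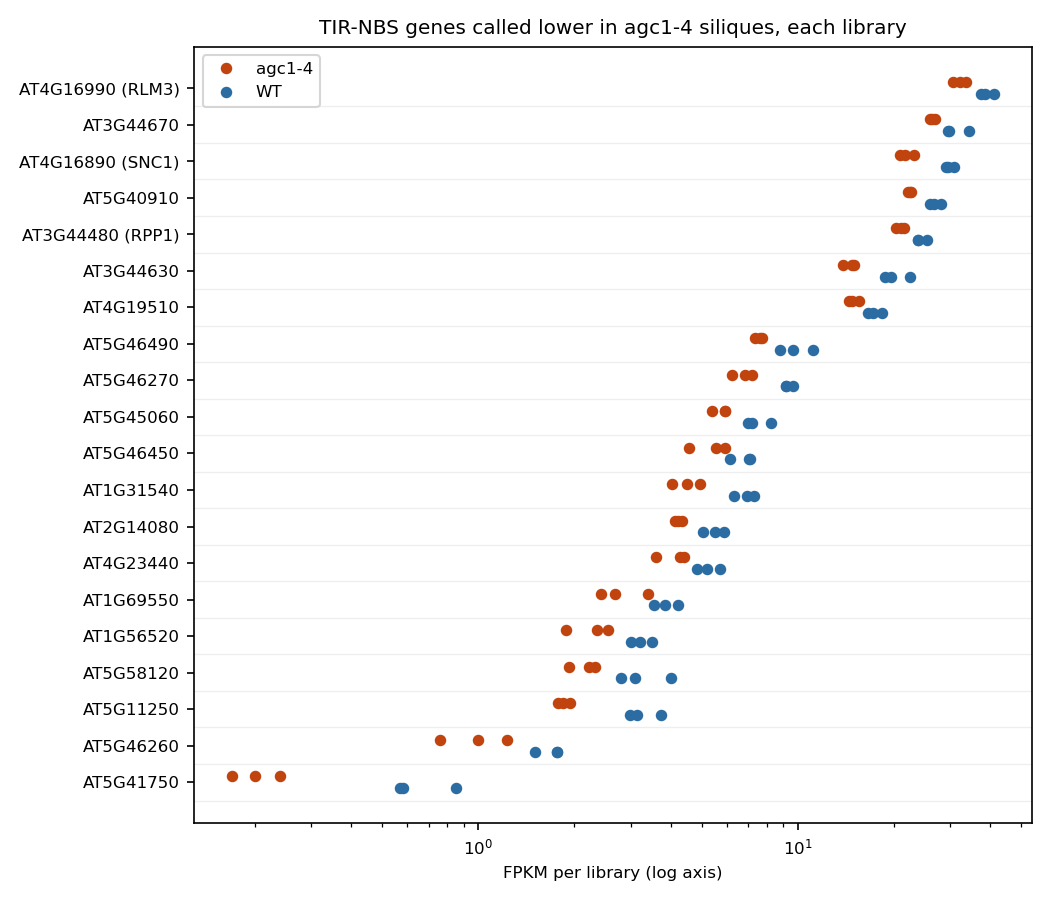
FPKM in each library (log axis) of the 20 TIR-NBS genes called lower, ordered by mean level, with agc1-4 in orange above WT in blue. For each gene the 3 agc1-4 points lie left of the 3 WT points, from RLM3 at 30.52 to 41.09 FPKM down to AT5G41750 under 1 FPKM.

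Between 1 and 10 FPKM, AT5G11250 had 1.94, 1.84 and 1.78 FPKM in agc1-4 and 2.99, 3.73 and 3.15 FPKM in WT. It was 1.77-fold lower, with a log2 fold change of -0.82 ± 0.15 (adjusted p = 0.000311). AT1G31540 had 4.49, 4.96 and 4.05 FPKM in agc1-4, against 6.32, 6.96 and 7.29 FPKM in WT. Its log2 fold change was -0.61 ± 0.10, and the libraries of the 2 genotypes did not overlap in either gene. AT5G58120 had 1.93, 2.22 and 2.32 FPKM in agc1-4 and 3.09, 4.02 and 2.80 FPKM in WT (-0.64 ± 0.16, adjusted p = 0.00705). Its call was lost without agc1-4 replicate 1 (0.0617) and without WT replicate 2 (0.0796), which was the highest WT library.

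AT5G45060 had 5.92, 5.90 and 5.39 FPKM in agc1-4 and 7.20, 8.26 and 6.99 FPKM in WT, a log2 fold change of -0.39 ± 0.09 (adjusted p = 0.00511). It kept its call whichever library was left out, though not in limma on log FPKM. The other called members of this level outside the tandem groups described below were AT2G14080, AT1G69550, AT1G56520 and AT4G23440. Their log2 fold changes ranged from -0.50 to -0.36 and their adjusted p from 0.02 to 0.044. AT4G23440 is described as TIR-NBS without the LRR. Each of these calls was lost when single libraries were left out. Without agc1-4 replicate 1 this held for AT2G14080 (0.0888), AT1G56520 (0.0648) and AT4G23440 (0.0762). Without agc1-4 replicate 2 it held for AT2G14080 (0.0541), AT1G69550 (0.108) and AT4G23440 (0.222), and without agc1-4 replicate 3 for all 4, at 0.0624 to 0.148. Of the WT libraries, replicate 1 did so for AT2G14080 (0.059) and AT4G23440 (0.0956), replicate 2 for AT2G14080 (0.0787) and replicate 3 for AT1G69550 (0.0676), AT1G56520 (0.0736) and AT4G23440 (0.113).

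The largest fold was that of a weakly expressed gene, AT5G41750. It had 0.24, 0.17 and 0.20 FPKM in agc1-4 and 0.58, 0.85 and 0.57 FPKM in WT, from 28 summed counts in agc1-4 and 93 in WT. Its log2 fold change was -1.74 ± 0.35, or 3.35-fold lower (adjusted p = 0.000751). The gene passed the filter on low counts through WT: all 3 WT libraries, but not all 3 agc1-4 libraries, reached the CPM cutoff of 1.11 (CPM, counts scaled to library size). This also held for AT5G41550, AT5G48780 and AT5G49140, which were not called. Among the 47 members above the cutoff in all 6 libraries, 19 were lower and 0 higher, or 40.4%, against 7.20% of all such genes, and their median log2 fold change was -0.30. Next to AT5G41750 stands AT5G41740, which had 0.92, 0.74 and 0.86 FPKM in agc1-4 and 1.12, 1.32 and 1.48 FPKM in WT (-0.64 ± 0.23, adjusted p = 0.0652).

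Of the 31 members that were not tested, 11 were at 0 in every library. Counting error alone lets a 0 stand for as many as 3 counts, or 0.254 CPM in the deepest and 0.376 CPM in the shallowest library. The other 20 had at most 62 counts over the 6 libraries, and the highest mean was 0.46 FPKM, for AT1G72950. It had 0.28, 0.07 and 0.59 FPKM in agc1-4 and 0.32, 0.63 and 0.87 FPKM in WT, which overlap. No member was at 0 in all libraries of one genotype with 10 or more counts in the other.

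Many members stand close together in the RefSeq gene order (assembly TAIR10.1), which served only for order, names, GC content and length. With neighbours at most 10 places apart in the order of protein-coding genes, 60 members fell into 21 clusters. Of the 36 tested there, 14 were lower (38.9%), and of the 17 tested outside clusters 6 were lower (35.3%). Of all tested genes 7.07% were lower. Where members were immediate neighbours, 12 pairs stood on the same strand, 8 head to head and 3 tail to tail. The only adjacent pair with both genes called was AT5G46260 and AT5G46270, on the same strand. AT4G19520, next to the called AT4G19510, had 1.19, 1.21 and 1.19 FPKM in agc1-4 and 1.67, 1.48 and 1.31 FPKM in WT (-0.31 ± 0.17, adjusted p = 0.246). Estimated counts of near-identical copies are uncertain, because reads can be divided between them: 17.7% of the members' counts were not whole, against 4.67% over the table, and 8 of the 20 called members had such counts.

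The cluster around SNC1 on chromosome 4 holds 6 members from SNC1 to RLM3. RPP5 stands between these members and RPP4 just before SNC1 in the gene order, and neither is itself a member. RPP4 (AT4G16860) and RPP5 (AT4G16950), which confer resistance to downy mildew, are described otherwise in the table but as TIR-NBS-LRR in RefSeq. RPP4 had 18.36, 18.57 and 17.50 FPKM in agc1-4 and 23.55, 25.85 and 25.12 FPKM in WT (-0.47 ± 0.07, adjusted p = 1.1e-05). RPP5 had 12.29, 10.74 and 11.90 FPKM in agc1-4 and 16.97, 17.97 and 17.01 FPKM in WT (-0.61 ± 0.07, adjusted p = 4.42e-07). Like SNC1 and RLM3, both lay lower in every agc1-4 library than in any WT library. The members between them went several ways. AT4G16900, next to SNC1, had 5.32, 4.34 and 4.21 FPKM in agc1-4, against 6.90, 6.51 and 6.15 FPKM in WT (-0.35 ± 0.12, adjusted p = 0.0513). AT4G16920 was at -0.04, AT4G16960 at 0.16 and AT4G16940 at 0.24 on the log2 scale, none of them called, and their levels were between 0.62 and 3.25 FPKM.

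**Figure D4:**
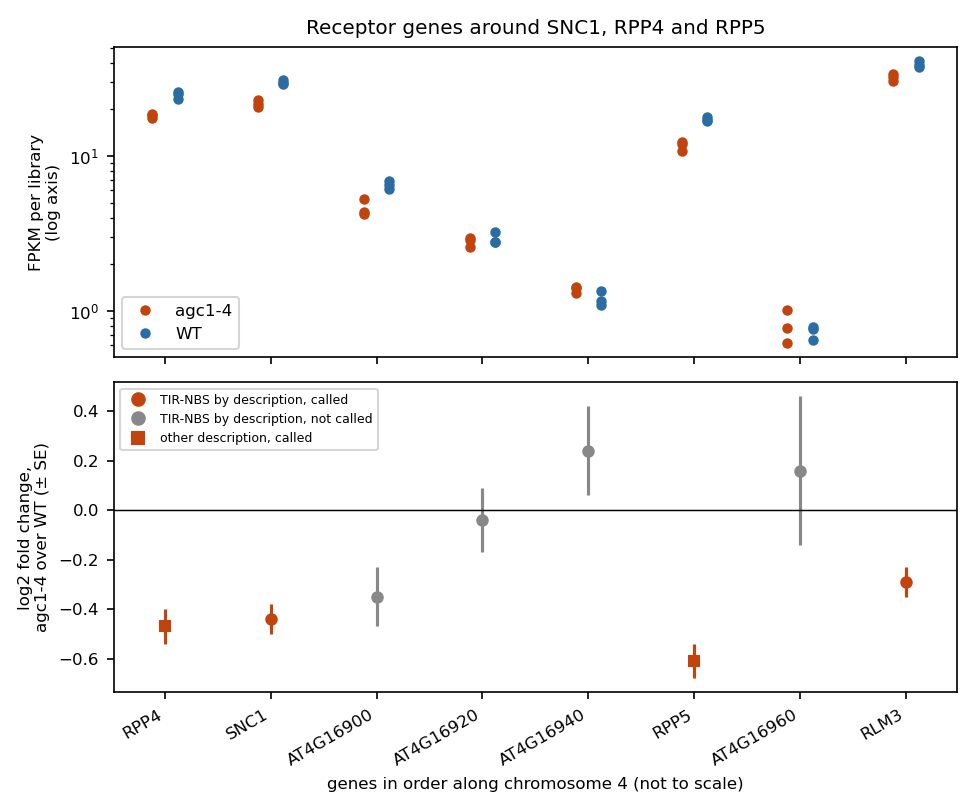
Upper panel, FPKM in each library (log axis) of 8 receptor genes in their order along chromosome 4, with agc1-4 in orange left of WT in blue. Lower panel, log2 fold change with its SE, in which RPP4, SNC1, RPP5 and RLM3 are called lower between -0.61 and -0.29 and the 4 weaker genes are not called.

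On chromosome 5, AT5G46260 and AT5G46270 stand side by side, and further along a cluster holds AT5G46450, AT5G46490, VICTL and VICTR. AT5G46270 had 7.19, 6.23 and 6.84 FPKM in agc1-4 and 9.21, 9.20 and 9.63 FPKM in WT, a log2 fold change of -0.45 ± 0.09 (adjusted p = 0.000446). Its neighbour AT5G46260 had 1.0, 1.23 and 0.76 FPKM in agc1-4 and 1.51, 1.77 and 1.77 FPKM in WT (-0.75 ± 0.21, adjusted p = 0.0135). The call of AT5G46260 was lost without agc1-4 replicate 1 (0.0533) and without agc1-4 replicate 3 (0.0841). AT5G46490 had 7.72, 7.35 and 7.63 FPKM in agc1-4, against 9.69, 8.79 and 11.12 FPKM in WT (-0.43 ± 0.11, adjusted p = 0.00868). AT5G46450 had 5.90, 4.58 and 5.53 FPKM in agc1-4, against 6.12, 7.08 and 7.04 FPKM in WT (-0.33 ± 0.11, adjusted p = 0.0389). Here too the agc1-4 libraries stood lower, but the distance between the genotypes was narrow in AT5G46450. Without agc1-4 replicate 2 the adjusted p was 0.0552 for AT5G46490 and 0.247 for AT5G46450. Without WT replicate 3 they were 0.0631 and 0.0891, and AT5G46450 was also not called without agc1-4 replicate 3 (0.0728) or WT replicate 2 (0.0874). VICTR (AT5G46520), named for a root growth response triggered by a small compound, had 1.98, 1.58 and 2.13 FPKM in agc1-4 and 2.38, 2.42 and 2.30 FPKM in WT (-0.33 ± 0.16, adjusted p = 0.189). RPS6 (AT5G46470), a receptor for a bacterial effector that stands in the same stretch but is described otherwise, had 10.22, 10.31 and 9.31 FPKM in agc1-4 and 12.58, 13.69 and 11.85 FPKM in WT (-0.35 ± 0.07, adjusted p = 0.00133).

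By chromosome the called members were 3 of 12 tested on chromosome 1, 1 of 2 on chromosome 2 and 3 of 4 on chromosome 3. They were 4 of 13 on chromosome 4 and 9 of 22 on chromosome 5. Over all chromosomes 7.07% of all tested genes were lower, and the tested members are too few to compare chromosomes. The positive fold changes were small and none was called. The highest were 0.30 for AT1G72840 (adjusted p = 0.17) and 0.30 for AT1G63730 (adjusted p = 0.506). AT1G72840 had 3.75, 4.13 and 3.57 FPKM in agc1-4 and 3.07, 2.85 and 3.77 FPKM in WT, so its genotypes overlap.

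Members with and without the LRR were counted apart, and the difference between them was not tested. Of the TIR-NBS-LRR members, 18 of 48 tested were lower (37.5%, against 7.07% of all tested genes), with a median log2 fold change of -0.31. Of those without the LRR, 2 of 5 tested were lower, with a median of -0.40, and 5 genes are too few to compare. AT5G48780, among the 5, passed the filter on low counts through WT. RefSeq gives the TIR-NBS label to 20 further genes whose description in the table is worded otherwise. Of these, 12 were tested, 7 were lower (58.3%, against 7.07% of all tested genes) and 0 higher, with a median of -0.33. By name, WRR4 (AT1G56510), for resistance to white rust, had 4.60, 4.17 and 4.26 FPKM in agc1-4 and 7.03, 6.22 and 6.32 FPKM in WT (-0.58 ± 0.11, adjusted p = 0.000425). RRS1, which carries a WRKY domain and works with RPS4, was called at a log2 fold change of -0.26 (adjusted p = 0.0445), while RPS4 was at -0.21 (adjusted p = 0.448). The RRS1 call was lost with the replicate number as a block (0.052), and without agc1-4 replicate 1, 2 or 3 (0.202, 0.0668 and 0.122) or WT replicate 2 or 3 (0.156 and 0.0667). It was also lost in DESeq2 (0.193), in limma on log2(FPKM + 1) (0.201) and with GC and length trends removed (0.205). Of 14 listed characterised receptors outside the members, 11 were tested. Of these 5 were lower (45.5%, against 7.07% of all tested genes): WRR4, RRS1, RPP4, RPP5 and RPS6. Besides RPS4, those not called were LAZ5 at -0.30 (adjusted p = 0.0749), TAO1 at -0.13 (0.339) and CHS3 at -0.12 (0.393). RRS1B and CSA1, both at -0.10 (0.44 and 0.779), were not called either.

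The other large class of nucleotide-binding receptors has a coiled-coil domain in place of the TIR domain. RefSeq labels 48 genes CC-NBS or NB-ARC without TIR, though the NB-ARC label does not state a coiled-coil domain. Of the 48, 34 were tested. Of these 13 were lower (38.2%) and 0 higher, against 7.07% and 6.55% of all tested genes. The median log2 fold change was -0.25. Their summed FPKM was 253, 254 and 248 in agc1-4 and 302, 307 and 298 in WT, or 83.2% of WT. The share called and the summed level were close to those of the TIR-NBS genes, and the difference between the classes was not tested.

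The TIR-NBS genes are long, with a median RefSeq transcript of 3850 bases against 1520 over all genes, and long transcripts were more often called lower than higher. Of all tested genes with transcripts of 3000 bases or more, 272 of 2219 were lower (12.3%) and 57 higher, with a median log2 fold change of -0.07. Among the 49 tested members of that length 20 were lower (40.8%). With trends on GC content and length removed from the fit, an alternative chosen after seeing the data, 12 of 53 members were lower, against 7.48% of all genes, and the median was -0.26. RPP1, AT3G44670, AT5G40910 and AT4G19510 then lost their calls (adjusted p = 0.293, 0.0814, 0.114 and 0.238), with log2 fold changes of -0.11, -0.16, -0.14 and -0.13. AT1G56520, AT1G69550, AT2G14080, AT4G23440 and AT5G46450 lost theirs too (0.0634, 0.0587, 0.0702, 0.106 and 0.109). Of the 20 called members 11 remained, SNC1, RLM3 and AT3G44630 among them, and AT1G72890 was added (0.0417). The part of transcript length in the result was not tested further.

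Of the tissue marker sets, the green tissue set was lower throughout. The 4 green tissue markers were all lower, and their summed FPKM was 6400, 6470 and 6640 in agc1-4 against 7570, 7730 and 7500 in WT, or 85.6% of WT. The 4 endosperm markers summed to 59.0, 56.0 and 57.2 FPKM in agc1-4 against 50.3, 50.6 and 50.2 in WT, or 114%, and 1 of them was called higher. The 4 seed coat markers summed to 642, 616 and 581 FPKM in agc1-4 against 543, 476 and 654 in WT, with 2 called higher. The 4 pollen markers summed to 125, 109 and 128 FPKM in agc1-4 against 85.9, 89.3 and 113 in WT, with 0 called at adjusted p under 0.05. The 6 valve, valve margin and replum markers summed to 461, 503 and 482 FPKM in agc1-4 against 447, 474 and 447 in WT. Of them 2 were lower, FUL and RPL, at log2 fold changes of -0.24 and -0.41. No marker was at 0 in any library, and the part of tissue proportions in the receptor result was not tested.

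Genes that act with or after TIR receptors were taken from a list of 33, of which 26 were tested. Of these 4 were lower (15.4%) and 2 higher (7.69%), against 7.07% and 6.55% of all genes, with a median log2 fold change of -0.12. EDS1 (AT3G48090), the lipase-like protein through which TIR receptors signal, had 4.34, 3.26 and 3.56 FPKM in agc1-4 and 5.79, 6.57 and 5.92 FPKM in WT. It was 1.63-fold lower (log2 fold change -0.70 ± 0.15, adjusted p = 0.00132). Every agc1-4 library lay under every WT library. Its partners were not called. PAD4 (AT3G52430) had 1.16, 0.69 and 0.50 FPKM in agc1-4 and 0.84, 0.87 and 1.0 FPKM in WT, and SAG101 (AT5G14930) had 3.96, 2.40 and 2.71 FPKM in agc1-4 and 3.35, 4.56 and 3.77 FPKM in WT. Their log2 fold changes were -0.14 ± 0.34 and -0.37 ± 0.18 (adjusted p = 0.841 and 0.19), and the genotypes overlapped in both.

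Of the ADR1 helper receptors, ADR1-L1 (AT4G33300) had 9.63, 11.88 and 10.33 FPKM in agc1-4 and 13.91, 15.13 and 13.23 FPKM in WT (-0.39 ± 0.09, adjusted p = 0.00235). ADR1 (AT1G33560) had 6.45, 5.52 and 5.99 FPKM in agc1-4 and 8.11, 7.03 and 7.66 FPKM in WT (-0.33 ± 0.11, adjusted p = 0.0432). ADR1-L2 (AT5G04720) had 15.04, 15.77 and 14.46 FPKM in agc1-4 and 16.50, 17.71 and 20.07 FPKM in WT (-0.26 ± 0.08, adjusted p = 0.0301). All 3 were thus lower without overlap, and ADR1-L3 was listed at 0. The ADR1 call was lost without any of the agc1-4 libraries or WT replicate 1 or 3 (0.0581 to 0.193), and the ADR1-L2 call without any of the agc1-4 libraries or WT replicate 3 (0.0594 to 0.145). Both were also lost in DESeq2 (0.168 and 0.12), in limma on log2(FPKM + 1) (0.103 and 0.102) and with GC and length trends removed (0.0874 and 0.0711). AT5G66900 and AT5G66910, listed with the helpers, were at -0.13 and -0.10 (adjusted p = 0.499 and 0.582).

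Chaperones and co-chaperones that hold receptors in a competent state included 0 lower and 1 higher of 7 tested (14.3%, where 13.6% of all genes were called in either direction). In 5 of the 7 (71.4%) every agc1-4 library lay above every WT library, against 14.5% of all tested genes. HSP90.1 (AT5G52640), a heat-inducible HSP90, had 9.78, 12.40 and 9.18 FPKM in agc1-4 and 3.65, 4.04 and 2.09 FPKM in WT, or 3.15-fold higher (log2 fold change 1.66 ± 0.18, adjusted p = 2.06e-06). SGT1A, SGT1B, RAR1 and the other HSP90 genes were between -0.08 and 0.23 and not called. The same held for SRFR1, CPR1 and BON1, negative regulators of these receptors, at -0.09, 0.13 and -0.21, and for the corepressor TPR1 at 0.02. Among output genes, 1 of 7 tested was called, again 14.3%. ALD1 (AT2G13810), an enzyme of pipecolic acid synthesis, had 30.93, 30.14 and 29.22 FPKM in agc1-4 and 22.72, 21.07 and 24.47 FPKM in WT (0.41 ± 0.08, adjusted p = 0.00068). The salicylic acid genes ICS1, EDS5 and PBS3 were at -0.03, -0.33 and -0.31, and PR2 and PR5 at -0.98 and -0.13, without a call. PR1 had 0.09, 0.35 and 0.28 FPKM in agc1-4, was listed at 0 in the 3 WT libraries, and was not tested. Of the 7 tested output genes 6 had a negative log2 fold change, with a median of -0.25 over the 7. In 4 of the 7 (57.1%) every agc1-4 library lay below every WT library, where 15.0% of all tested genes showed this.

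**Figure D5:**
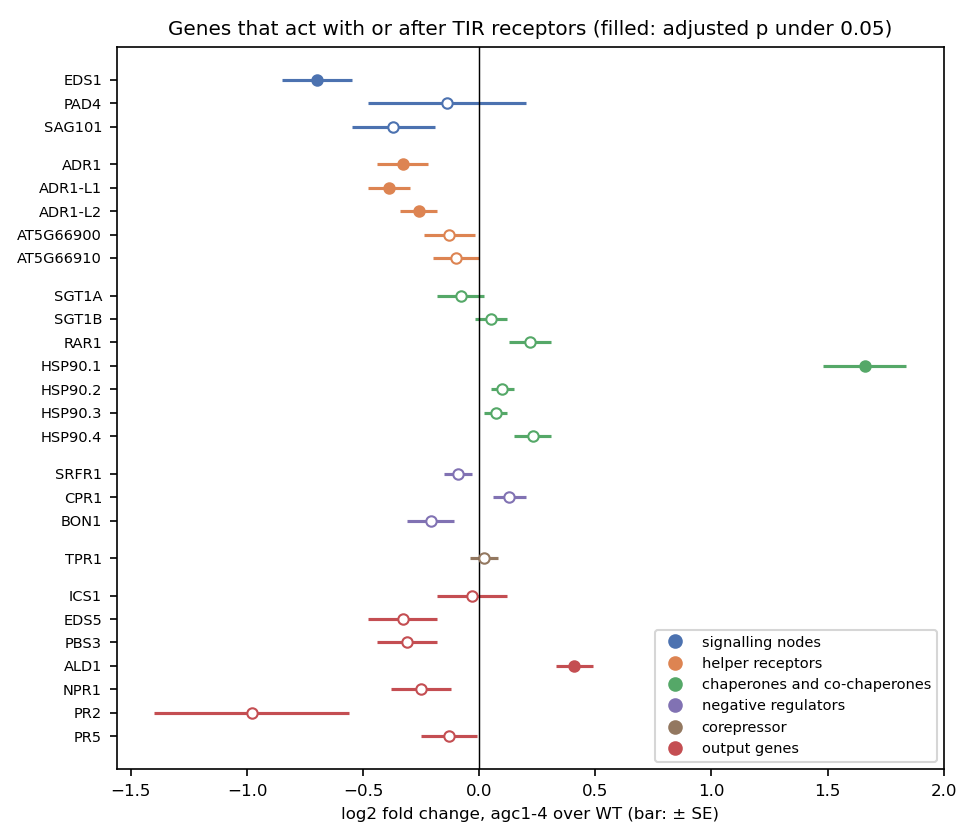
Log2 fold change, agc1-4 over WT, with its SE, of the 26 tested genes that act with or after TIR receptors, grouped by role and filled where the adjusted p is under 0.05. EDS1 and 3 ADR1 genes are filled left of 0, and HSP90.1 and ALD1 right of it.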

How the data were processed

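The deposited table holds, per the file headers, 6 columns of FPKM and 6 of counts. The authors' counts were not all whole (4.32% to 4.86% per library were not), so they were taken as estimated counts, as deposited, and rounded. FPKM was used as deposited. Aligner, counter, genome build and strand are not given in the sources used here, so no coordinates or sequences are printed. RefSeq (TAIR10.1) loci matched 27420 rows.

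Differences were tested over the whole table in R 4.3.3 with edgeR 4.0.16: TMM, filterByExpr (minimum count 10, CPM cutoff 1.11) and the robust quasi-likelihood F-test on 18828 genes. Fold changes are agc1-4 over WT. Standard errors were obtained as the absolute log2 fold change over the root of F. The fit was tested on simulated data. Total counts of 7973366 to 11812934 limit the precision of weak genes, and intervals or limits for a count of 0 cover counting error only.

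Members, gene lists and markers were chosen with earlier results of these data known. Named members were those called, the 8 most abundant, neighbours of called members and listed characterised receptors. Of these receptors, WRR4B (AT1G56540) was at a log2 fold change of -0.49 (edgeR adjusted p = 0.242) and SOC3 (AT1G17600) at 0.09 (0.928). TN2 (AT1G17615) was at 0 in every library. Others named were chosen after their values were seen. Alternatives were RLE scaling, no filter, a filter on mean CPM of 0.5, DESeq2 1.42.0, limma 3.58.1 on log2(FPKM + 1) and log2(FPKM + 0.1) where FPKM reached 1 in 3 libraries, a block on replicate number, leaving out single libraries, adjusted p under 0.01 and, after seeing the data, removal of trends on GC content and length (18668 genes had both).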

Additional observations from a re-analysis of the deposited data

How the results depend on the processing

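Of the 20 members called lower, 6 kept the call under all 14 alternatives to the edgeR fit (AT1G31540, AT3G44630, SNC1, RLM3, AT5G11250 and AT5G46270). AT5G41750 kept it under the 12 that fitted it, since its FPKM was too low for limma. The other 13 lost it at least once, at adjusted p of 0.0529 to 0.293. Members called in all, each lower, numbered 12 of 73 fitted with DESeq2 (16.4%, against 3.37% of all genes fitted). There 6 members had no adjusted p. With limma they numbered 8 of 44 at either pseudocount (18.2%, against 4.71% and 4.57% of all genes). They numbered 12 of 53 (22.6%) with GC and length trends removed, against 7.48%, and 12 of 53 at adjusted p under 0.01, against 3.9%. When single libraries were left out they numbered 11 to 18, or 21.2% to 34.0% of those fitted, against 4.34% to 7.19% of all genes. Members called higher numbered 1 without a filter and 1 with the filter on mean CPM, AT3G51570 in both. The median log2 fold change of the members was -0.23 and -0.28 in limma with 1 and 0.1 added, -0.26 with trends removed, and -0.31 to -0.27 without single libraries. Among all genes, calls numbered 1586 with DESeq2, 1428 at adjusted p under 0.01 and 1688 to 2816 without single libraries. The cause of these differences was not tested, apart from the fewer samples or genes that some alternatives hold by construction. Among uncalled genes, AT1G17600 turned to -0.07 without WT replicate 1 and PAD4 to 0.07 without agc1-4 replicate 3, within ranges of -0.07 to 0.27 and -0.57 to 0.07 without single libraries. What a shared replicate number stands for is not stated. Same-numbered libraries had deviations correlated at -0.0304, 0.00502 and 0.0338, and differently numbered ones at -0.035 to 0.0333. With the replicate number as a block 22 of 53 members were lower (41.5%, against 7.08% of all genes) and 0 higher, with a median of -0.33. Depth limits the 31 members that were not tested, all weakly expressed.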

Other observations

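AT3G51570 was the only member called higher under any alternative tried, and it was chosen after its values were seen. It had 22, 4 and 8 counts in agc1-4 and 3, 0 and 4 in WT, too few to pass the filter on low counts. Its log2 fold change was 2.13 without a filter (adjusted p = 0.0217), 2.14 with the filter on mean CPM (0.0487) and 2.08 in DESeq2 (0.176). Agc1-4 replicate 1 held most of its counts, and its FPKM overlapped between genotypes (0.48, 0.12 and 0.28 in agc1-4, 0.10, 0.00 and 0.13 in WT).

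Among the genes that only RefSeq labels TIR-NBS, AT3G04210 had the largest difference, and it too was chosen after its values were seen. It averaged 6.10 FPKM in agc1-4 and 12.2 FPKM in WT, a log2 fold change of -0.98 (edgeR adjusted p = 1.49e-06).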
